A study of Homo sapiens with 8 samples.

Results

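Skipped-exon events were examined in 10 genes of the actin cytoskeleton, the tropomyosins TPM1, TPM2, TPM3 and TPM4, the alpha-actinins ACTN1 and ACTN4, the myosin light chain MYL6, the caldesmon gene CALD1 and the spectraplakins MACF1 and DST. Every event listed under these gene symbols was taken, which gave 152 events over 119 distinct middle exons, of 123924 events in 13424 genes. Of the 152, 98 were listed for MCF10A, 133 for HMLE TWIST and 79 for both. The 4 groups had 2 libraries each, described by the submitters as biological replicates. They were MCF10A, a non-tumorigenic breast epithelial line, kept for 24 hours in DMSO, the solvent, or in 10 µM emetine, a plant alkaloid known to block translation, and HMLE TWIST with DMSO or with emetine at the same dose and time. HMLE TWIST is an immortalised breast epithelial line that overexpresses TWIST, a transcription factor, from an integrated retroviral pBabe vector, and no HMLE line without TWIST was analysed here, so TWIST, the line and the separate processing of each line's table cannot be told apart.

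Tropomyosins are coiled-coil dimers that lie along the actin filament and set which motors and binding proteins reach it. Each tropomyosin gene makes many isoforms from alternative promoters, alternative last exons and internal exons of equal length that are used in place of each other, called mutually exclusive exons. Alpha-actinins crosslink actin filaments through paired actin-binding domains, and alternative exons in the region of their calcium-binding EF hands give muscle and non-muscle forms. MYL6 is the essential light chain of non-muscle and smooth muscle myosin, and caldesmon binds actin, tropomyosin and myosin and inhibits the myosin motor. MACF1 and DST are very large paralogous linkers that join actin to microtubules and, in some isoforms, to intermediate filaments.

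The sequences of the exons on which the results turn were read from GENCODE 29 transcripts (GRCh38), matched to the deposited events by gene, exon length and the lengths of both introns. They are shown because the paralogous members carry them in corresponding form. The 18-nucleotide (nt) exons of MACF1 and DST, whole coding exons in both genes, were identical at 16 of 18 positions, and capitals mark the 2 that differ. At GRCh38 they lie on chromosome 1 (39465095 to 39465112, plus strand) and chromosome 6 (56468982 to 56468999, minus strand). Counted from 1 at the exon's 5′ end, with MACF1 first, the differences are C9G and C12A.
MACF1 18-nt exon: ttcttcctCggCaatcag
DST 18-nt exon: ttcttcctGggAaatcag

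The series concerns RNA G-quadruplexes, structures built from runs of guanine. The letters GGG, searched on the transcript strand only, occur once in the DST exon and not in that of MACF1, and in 12.8% of the 141 internal coding exons of 18 nt in GENCODE 29.

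TPM1, TPM2 and TPM3 each listed a pair of adjacent 76-nt coding exons, called first and second here in transcript order. Capitals mark the bases at which the exons of a pair differ from each other. At GRCh38 they start at 63061198 and 63061713 on the plus strand of chromosome 15 (TPM1), and at 35685064 and 35684732 on the minus strand of chromosome 9 (TPM2).
TPM1 first exon: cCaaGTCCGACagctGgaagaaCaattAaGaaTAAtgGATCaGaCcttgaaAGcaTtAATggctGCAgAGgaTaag
TPM1 second exon: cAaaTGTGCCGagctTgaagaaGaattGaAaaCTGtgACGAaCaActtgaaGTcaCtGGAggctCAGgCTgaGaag
TPM2 first exon: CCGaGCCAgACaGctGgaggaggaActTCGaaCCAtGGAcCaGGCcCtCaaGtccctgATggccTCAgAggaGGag
TPM2 second exon: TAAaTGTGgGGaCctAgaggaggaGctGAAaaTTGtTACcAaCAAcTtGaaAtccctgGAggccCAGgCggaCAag

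The exons of a pair were identical at 43 of 76 positions in TPM1 and at 40 of 76 in TPM2 and in TPM3. Exons in the same place of different genes were more alike. The second exons matched at 59 positions between TPM1 and TPM2, at 58 between TPM1 and TPM3 and at 60 between TPM2 and TPM3. The first exons matched at 52, 49 and 49 positions in the same order. An exon of 76 nt is not a multiple of 3, so that carrying both exons, or neither, shifts the reading frame.

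The junction reads of an event are those that join the middle exon to its neighbours (inclusion) and those that join the neighbours directly (skipping). The inclusion level is the share of the inclusion form after each count is scaled by the effective length of its form, and runs from 0 to 1. Most events of the 10 genes lay near full inclusion. In 109 events the mean level was above 0.95 in every listed group, in 11 it was under 0.05 in all, and in 32 at least 1 group lay from 0.05 to 0.95, of which 18 had 20 reads or more in every library. An event was called changed where the adjusted p of a quasi-binomial model, fitted over all events of the tables, was under 0.05 and the mean level moved by at least 0.1. limma on the log2 odds of inclusion was the alternative test, and its adjusted p is given beside the calls.

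Junction reads summed over all events, in which a read can count several times, ran from 78412292 to 91259363 per library. The 10 genes had 310759 to 321028 in the MCF10A libraries, over 98 listed events. In those of HMLE TWIST they had 592496 to 671486, over 133 listed events, so these sums also follow the number of listed events. The tables hold no expression values, so the cell type was checked on junction reads of listed events. Of 12 epithelial markers, 9 were listed in MCF10A (180973 and 182578 reads in the DMSO libraries) and 5 in HMLE TWIST (149 and 244 reads). EPCAM, KRT18 and GRHL2 had no listed event in either line. KRT5, KRT14, KRT17 and ST14 were listed in MCF10A and not in HMLE TWIST, where CDH1 had 2 and 0 reads. Of 11 mesenchymal markers, 7 were listed in MCF10A (27655 and 30954 reads) and 10 in HMLE TWIST (4032521 and 3745452 reads). These sums also follow the number of listed events, which was 30 and 9 for the epithelial and 16 and 112 for the mesenchymal markers (MCF10A and HMLE TWIST). Both lines are labelled epithelial, and nearly all marker reads of HMLE TWIST were mesenchymal. In such bulk libraries fewer cells of a type and less RNA per cell cannot be told apart, and the part of these markers in the differences between the lines was not tested.

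Between the untreated lines, 4 of 35 tested events were called, in TPM1 (2 events), MYL6 and MACF1, against 6.49% of the 19301 events tested in all genes. The change is HMLE TWIST minus MCF10A. The median absolute change was 0.0132 over the events of the 10 genes and 0.0165 over all tested events. Higher calls made up 1 of the 35 (2.15% over all genes) and lower calls 3 (4.34%). limma called 0 of the 35, and 36 of the 19301 events in all genes (0.187%, with 4070 at an unadjusted p under 0.05).

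**Figure D1:**
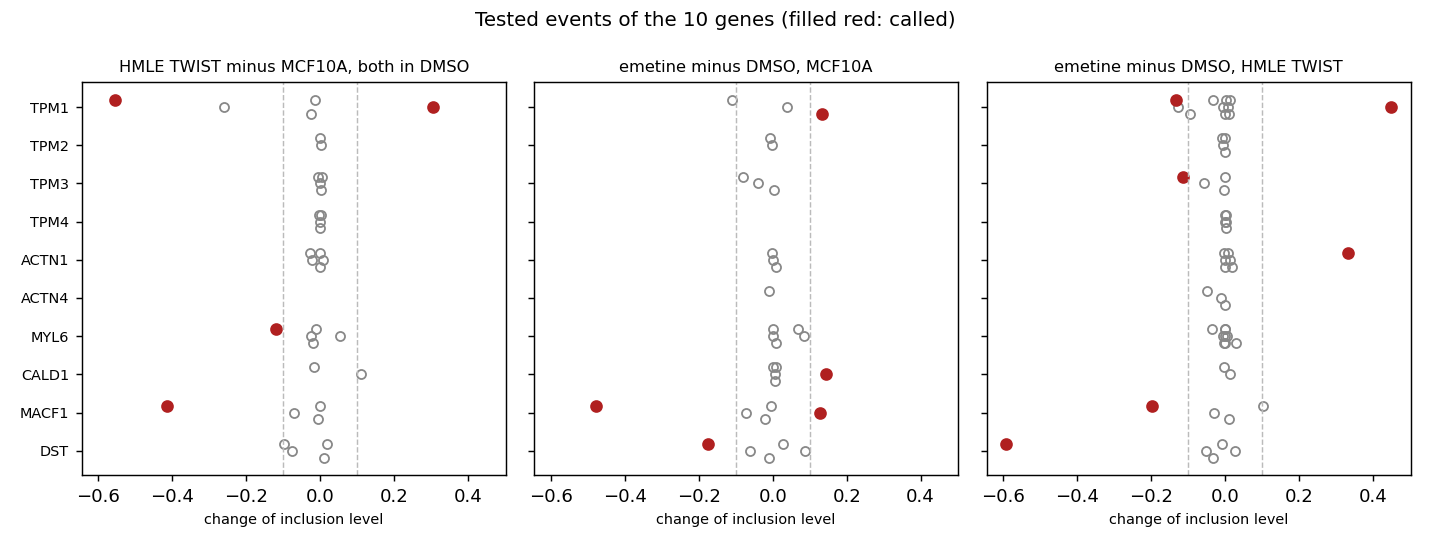
Change of inclusion level (horizontal axis, from 0 to 1 scale) of every tested event of the 10 genes (rows) in 3 comparisons; open grey circles are events not called, filled red circles are called events, and dashed lines mark 0.1 in either direction. Of 35, 32 and 54 tested events, 4, 5 and 6 were called, and most points lie near 0.

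TPM1 differed most between the untreated lines. The first 76-nt exon (chromosome 15, 63353397 to 63353472, GRCh37), measured against the second as its downstream neighbour, had levels of 0.856 and 0.846 in MCF10A and of 0.331 and 0.261 in HMLE TWIST. The lines did not overlap, and the change was -0.555 (adjusted p = 7.14e-32, quasi-binomial; 0.0717 with limma). The second 76-nt exon (63353912 to 63353987), measured against the first as its upstream neighbour, had levels of 0.0519 and 0.0471 in MCF10A and of 0.317 and 0.390 in HMLE TWIST. Its change was 0.304 (adjusted p = 1.11e-33, quasi-binomial; 0.0778 with limma). Both events concern the same pair of exons. In reads, the first exon took 91.3% and 90.6% of the upstream event in MCF10A against 46.5% and 38.2% for HMLE TWIST. MCF10A thus used mainly the first exon, and HMLE TWIST used both.

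TPM2 showed the same kind of choice only when its 2 exons were set against each other. Each of them, against skipping of both, had a mean level above 0.98 in every group, and no TPM2 event was called in any comparison. The share of the first exon (chromosome 9, 35685061 to 35685136) among the inclusion reads of both exons was 61.9% and 61.3% in untreated MCF10A and 46.4% and 46.6% in untreated HMLE TWIST, where the second exon (35684729 to 35684804) took the rest. The difference was -15.1 percentage points (adjusted p = 9.59e-08, quasi-binomial; 0.159 with limma). Such ratios were fitted over every pair of exons listed between the same flanking junction ends, an analysis added after the data were seen. These pairs also include neighbouring exons that transcripts carry together, as in TPM4, where the ratio is no choice between exons. The shares over all genes are therefore not those of mutually exclusive exons alone. Of 5 such pairs of the 10 genes tested between the untreated lines, the TPM2 pair alone was called at a difference of at least 10 points, against 2.54% of 5279 pairs in all genes.

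TPM3 used almost only the first exon of its pair. In the TPM3 pair the first exon (chromosome 1, 154144505 to 154144580) took 99.9% and 99.7% of the reads in untreated MCF10A and 99.6% and 99.6% in untreated HMLE TWIST. Its second exon (154143889 to 154143964) was read 7 and 22 times in the former and 44 and 35 times in the latter. The largest change of a TPM3 event was -0.00709, in a 79-nt exon from 154141781 (adjusted p = 0.00873, quasi-binomial; 0.471 with limma). TPM4 listed only 1 exon of 76 nt, and of its 16 events the 4 tested changed by between -0.00251 and 0.00163.

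**Figure D2:**
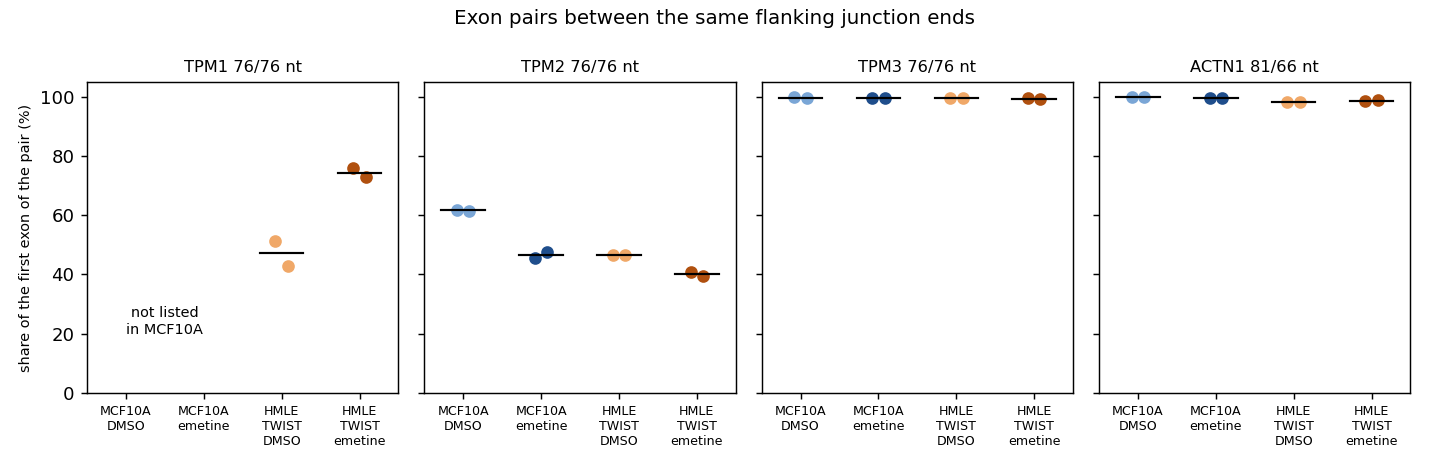
Share of the first exon (percent, vertical axis) among the inclusion reads of both exons of a pair, for TPM1, TPM2, TPM3 and ACTN1; points are libraries and short lines are means of 2. The TPM2 share was 61.6% in untreated MCF10A and between 40.1% and 46.5% in the other groups, while the TPM3 and ACTN1 shares were above 98% in every library.

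No alpha-actinin event was called between the untreated lines. In ACTN1 the 81-nt exon (chromosome 14, 69345706 to 69345786) took 99.9% and 99.9% of the reads of its pair with the 66-nt exon (69345175 to 69345240) in untreated MCF10A, and 98.2% and 98.5% in untreated HMLE TWIST. The 66-nt exon had 5 and 6 reads in the former and 107 and 77 in the latter. The difference of -1.55 points had an adjusted p of 7.73e-05 (quasi-binomial) and 0.0842 with limma, and was below the size needed for a call. Reads that skipped both exons were 1 and 0 in MCF10A and 73 and 85 in HMLE TWIST. The mean level of the 81-nt exon was 1 in MCF10A and 0.976 ± 0.00483 (SD, n = 2) in HMLE TWIST. No ACTN4 event had enough reads of its rarer form to be tested between the untreated lines.

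MYL6, the most deeply read of the 10 genes, had events at intermediate levels for exons of 36, 45 and 125 nt. The 36-nt exon (chromosome 12, 56553371 to 56553406) had levels of 0.777 and 0.859 in MCF10A and of 0.702 and 0.693 in HMLE TWIST, a change of -0.121 (adjusted p = 1.23e-07, quasi-binomial; 0.322 with limma). Without the MCF10A DMSO library at 0.859 the change was -0.0795, under the size needed for a call, and without either HMLE TWIST library the adjusted p was 0.0765 or 0.110 (quasi-binomial). This exon is the shorter form of a 144-nt exon with the same start, which had 29458 to 62375 reads per library and mean levels of 0.991 and 0.980 in the untreated lines. Both events hold the same skipping reads, and reads across the shared upstream junction can come from either form. Their inclusion reads were not told apart, so neither the level nor the change is that of the 36-nt form alone. The 45-nt exon (56554410 to 56554454) was included at 0.487 and 0.440 in MCF10A and at 0.535 and 0.496 in HMLE TWIST. Its change of 0.0521 (adjusted p = 5.19e-08, quasi-binomial; 0.712 with limma) was above the SDs of both lines (0.0337 and 0.0277) and below the size of a call. The 125-nt exon (56553282 to 56553406), which ends where the 36-nt exon does, was included at 0.0919 and 0.187 in MCF10A and at 0.124 and 0.113 in HMLE TWIST, so that the lines overlapped, and it was called in no comparison.

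In CALD1, the 78-nt exon (chromosome 7, 134620439 to 134620516) was mostly skipped, with mean levels of 0.114 ± 0.00428 in untreated MCF10A and 0.0954 ± 0.000203 in untreated HMLE TWIST (SD, n = 2). In the event with the longer form of the upstream exon, ending at 134618828, most reads of the same exon were inclusion reads. Its levels there were 0.807 and 0.862 in MCF10A and 0.941 and 0.951 in HMLE TWIST, a change of 0.111 that was not called (adjusted p = 0.0983, quasi-binomial). Reads that join the exon to its downstream neighbour count as inclusion in both events. The levels beside the longer form can therefore hold reads of transcripts with the shorter form.

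The only MACF1 event called between the untreated lines was that of the 18-nt exon (chromosome 1, 39930767 to 39930784), included at 0.641 and 0.649 in untreated MCF10A, from 247 and 282 inclusion against 118 and 130 skipping reads. In untreated HMLE TWIST it was included at 0.243 and 0.218, from 110 and 73 inclusion against 292 and 224 skipping reads. The lines were far apart beside the spread of the replicates, and the change was -0.415 (adjusted p = 5.06e-19, quasi-binomial; 0.0914 with limma). The 111-nt exon of MACF1 (39946592 to 39946702) was included at 0.126 and 0.112 in MCF10A and at 0.0506 and 0.0477 in HMLE TWIST, a change of -0.07 that was too small to be called. The 63-nt exon (39844133 to 39844195) lay at 0.858 and 0.807 in MCF10A and at 0.868 and 0.783 in HMLE TWIST, so that the lines overlapped.

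In DST, the paralogous 18-nt exon (chromosome 6, 56333780 to 56333797) was included in every read of untreated MCF10A, with 0 skipping reads beside 167 and 171 inclusion reads, which allows up to 0.888% of skipping reads over both libraries. In untreated HMLE TWIST it was included at 0.921 and 0.927. The change of -0.076 had an adjusted p of 0.000393 (quasi-binomial; 0.0608 with limma) and was not called. The 2730-nt exon of DST (56482784 to 56485513) had levels of 0.903 and 0.846 in MCF10A and of 0.805 and 0.750 in HMLE TWIST, on 28 to 37 reads in the latter line, and was not called.

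**Figure D3:**
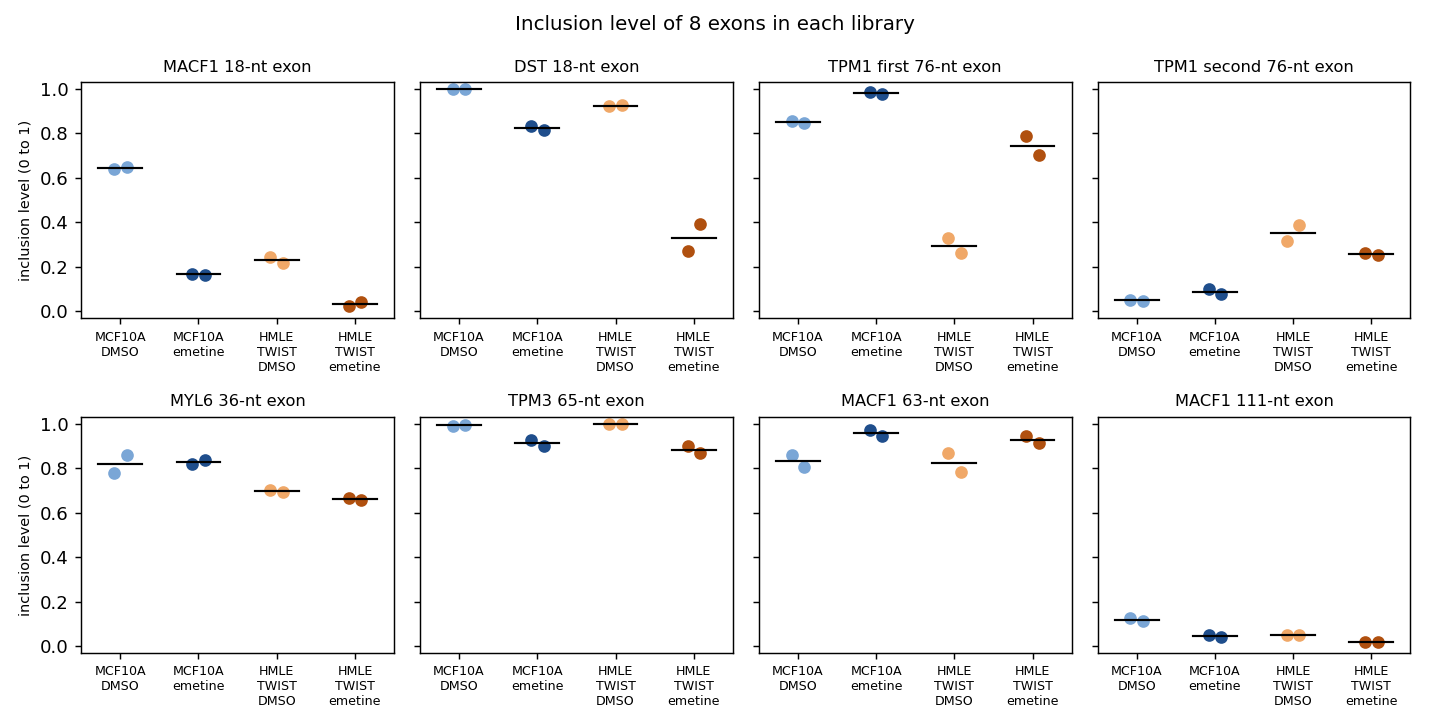
Inclusion level (0 to 1, vertical axis) of 8 exons of TPM1, TPM3, MYL6, MACF1 and DST in each library of the 4 groups; points are libraries and short lines are means of 2. The 18-nt exons of MACF1 and DST lie lower under emetine than under DMSO in both lines, and the first TPM1 exon lies higher.

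Under emetine in MCF10A, 5 of 32 tested events were called, 3 higher and 2 lower, against 13% of the 25522 events tested in all genes (7.9% higher and 5.15% lower). The calls lay in MACF1 (2 events), DST, TPM1 and CALD1. limma called 3 of the 32, against 7.88%. In the same emetine libraries the epithelial markers had 104787 and 104936 reads in sum and the mesenchymal markers 7201 and 7805, both sums below the DMSO libraries. They were mostly KRT5 (85159 and 80867) and VIM (5912 and 6343). KRT17, TWIST1 and ZEB2 alone had more reads in both emetine libraries, KRT17 with 7744 and 8952 against 4154 and 3811 in DMSO. The part of this in the changes was not tested. Without either emetine library that group held no replicates, and the prior degrees of freedom fell from 9.4 to 1.35 and 1.17. Calls were then lost over all genes, so these fits say nothing about the 10 genes in particular. A fit added after the data were seen moderated dispersions towards well-counted events alone (at least 5 expected reads of each form in every library). With all libraries it called 5 of the 32. The MACF1 18-nt exon went from 0.641 and 0.649 to 0.168 and 0.164 (change -0.479, adjusted p = 1.91e-07, quasi-binomial; 0.0156 with limma). The DST 18-nt exon went from 1 and 1 to 0.834 and 0.817, with 21 and 14 skipping reads under emetine against 0 and 0 in DMSO (change -0.175, adjusted p = 0.000287; 0.0145 with limma). Both microexons were therefore included less in each emetine library than in each DMSO library.

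The MACF1 63-nt exon moved the other way, from 0.858 and 0.807 to 0.974 and 0.945 (change 0.127, adjusted p = 0.000969, quasi-binomial; 0.0520 with limma). Without the length correction this change was 0.085, under the size of a call. The 111-nt exon of the same gene went from 0.126 and 0.112 to 0.0504 and 0.0412 (change -0.0734, adjusted p = 0.000321, quasi-binomial; 0.0649 with limma), which did not reach the size of a call. Beside the longer upstream exon the CALD1 78-nt exon rose to 0.959 and 1 (change 0.145, adjusted p = 0.0262, quasi-binomial; 0.0610 with limma). That call rests on 16 and 8 skipping reads in DMSO and 3 and 0 under emetine, and its inclusion reads can include those of the shorter upstream form. It is lost without the first listed DMSO library (0.117, adjusted p = 0.155, quasi-binomial) and, without the length correction, at a change of 0.0889. Beside the shorter upstream exon, which had more reads, the level was 0.121 and 0.111 under emetine and 0.111 and 0.117 in DMSO.

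The TPM1 first exon rose in MCF10A from 0.856 and 0.846 to 0.988 and 0.978 (change 0.132, adjusted p = 0.000115, quasi-binomial; 0.0198 with limma), or by 0.0811 without the length correction, under the size of a call. Read from its downstream side, the share of this exon went the other way, to 83.9% and 86.9% of the reads under emetine against 91.2% and 92% in DMSO. In TPM2 the share of the first exon fell from 61.9% and 61.3% to 45.5% and 47.5% (-15.2 points, adjusted p = 4.06e-09, quasi-binomial; 0.0632 with limma). Of 6 pairs of the 10 genes tested in MCF10A it was the 1 called, against 8.01% of 9695 pairs in all genes. Below the size of a call, the TPM3 65-nt exon (154148591 to 154148655) went from 0.989 and 0.996 to 0.926 and 0.899 (change -0.0797, adjusted p = 1.41e-05, quasi-binomial). The MYL6 45-nt exon went from 0.487 and 0.440 to 0.546 and 0.549 (change 0.084, adjusted p = 0.00014, quasi-binomial; 0.417 with limma). The 148-nt exon of ACTN4 (chromosome 19, from 39208567) changed by -0.00875, and no TPM4 event could be tested in MCF10A. An 85-nt exon of ACTN1 (from 69367579) changed by 0.00754 (adjusted p = 0.000156, quasi-binomial; 0.0184 with limma), below the size of a call.

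Under emetine in HMLE TWIST, 6 of 54 tested events were called, 2 higher and 4 lower, against 14% of the 30290 events tested in all genes (6.11% higher and 7.91% lower). The calls lay in TPM1 (2 events), TPM3, ACTN1, MACF1 and DST. limma called 5 of the 54, against 9.94%. The mesenchymal markers had 2717060 and 2401114 reads in sum in these emetine libraries, below those in DMSO, and the epithelial markers 208 and 180. The mesenchymal sum was mostly FN1 (1918856 and 1665653) and VIM (782003 and 717465). ZEB2 and TWIST1 alone of that list had more reads in both emetine libraries, ZEB2 with 1736 and 1304 against 993 and 852 in DMSO. The part of this in the changes was not tested. The median absolute change was 0.00749 over the events of the 10 genes and 0.0255 over all tested events. Without either emetine library that group held no replicates, and the prior degrees of freedom fell from 6.24 to 1.16 and 1.06. Here too calls were lost over all genes, so these fits say nothing about the 10 genes in particular. With all libraries and dispersions moderated towards well-counted events alone, 6 of the 54 were called.

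The largest change was that of the DST 18-nt exon, from 0.921 and 0.927 to 0.269 and 0.393 (change -0.593, adjusted p = 3.74e-05, quasi-binomial; 0.0113 with limma). Skipping reads went from 26 and 18 to 183 and 137. The MACF1 18-nt exon, already low in this line, went from 0.243 and 0.218 to 0.0228 and 0.0435 (change -0.197, adjusted p = 0.000317, quasi-binomial; 0.0191 with limma). Every emetine library of either line lay below its DMSO libraries for both microexons. The MACF1 63-nt exon lay at 0.943 and 0.913 under emetine and was not called here (change 0.103, adjusted p = 0.0620, quasi-binomial). The DST 327-nt exon (56394246 to 56394572) moved by less than a call in both lines, with changes of -0.0605 in MCF10A (adjusted p = 0.0332, quasi-binomial; 0.0391 with limma) and -0.0524 in HMLE TWIST (adjusted p = 0.0169, quasi-binomial; 0.0433 with limma).

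The TPM1 first exon rose in HMLE TWIST from 0.331 and 0.261 to 0.787 and 0.703 (change 0.449, adjusted p = 4.95e-05, quasi-binomial; 0.0206 with limma). In this line the table also lists both exons between the same outer exons, ending at 63353138 and starting at 63354414. There the share of the first exon went from 51.3% and 42.9% to 76.02% and 72.85% (27.3 points, adjusted p = 1.95e-10, quasi-binomial; 0.0457 with limma). It was the 1 pair called of 14 tested in these genes, against 10.2% of 13809 pairs in all genes. In TPM2 the share of the first exon went from 46.4% and 46.6% to 40.8% and 39.4% (-6.44 points, adjusted p = 2.86e-08, quasi-binomial; 0.198 with limma), too little for a call. Further downstream in TPM2, a 63-nt exon (35684485 to 35684547) and a 70-nt exon (35684243 to 35684312) were also listed as a pair. These are neighbouring exons that transcripts carry together, so that their ratio is no choice between exons. Beside the 70-nt exon, the 63-nt exon had mean levels of 0.9995 in DMSO and 0.9991 under emetine. In the pair, on flanks that leave out the other exon, the 63-nt exon had 9 and 17 inclusion reads in DMSO and 39 and 32 under emetine. These were 2.72% and 4.29% of the pair in DMSO and 12.3% and 10.5% under emetine, after scaling by effective length. The difference was 7.88 points (adjusted p = 0.00322, quasi-binomial, and 0.0546 with limma), also below the size of a call.

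The TPM1 pair gave different shares when read from its upstream and its downstream side under emetine. In DMSO the first exon's share of reads was 91.3% and 90.6% upstream against 91.2% and 92% downstream in MCF10A. Under emetine it was 99.3% and 98.8% upstream against 83.9% and 86.9% downstream. In HMLE TWIST it went from 46.5% and 38.2% to 86.7% and 80.6% upstream, and from 55.0% and 47.1% to 61.7% and 62.6% downstream. Reads that join the first exon to the second count as inclusion in both events, and in HMLE TWIST their number follows by subtraction from the listed events. It was 32 and 19 in the DMSO libraries and 534 and 338 under emetine when computed for the first exon, and 26 and 19, then 503 and 298, when computed for the second. These were 3.58% and 2.83% of the reads joining the first exon to the next common exon in DMSO, and 24.0% and 20.4% under emetine. How reads that span several junctions were counted is not stated in the sources used here. The levels of both TPM1 events hold these reads.

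**Figure D4:**
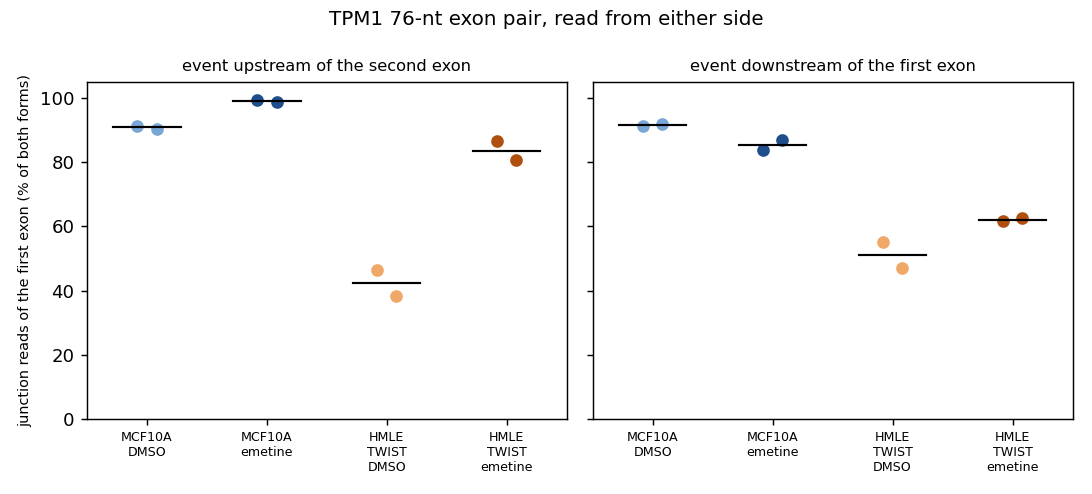
Share of junction reads assigned to the first TPM1 exon (percent, vertical axis), from the event upstream of the second exon and from the event downstream of the first, by library in 4 groups; points are libraries and short lines are means of 2. In untreated MCF10A the mean was 90.9% upstream and 91.6% downstream, and under emetine the upstream share exceeded the downstream share by 13.7 points in MCF10A and 21.5 points in HMLE TWIST.

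Other calls in HMLE TWIST were smaller or rested on fewer reads. The TPM3 65-nt exon went from 0.998 and 0.997 to 0.900 and 0.868 (change -0.114, adjusted p = 2.48e-05, quasi-binomial; 0.0113 with limma). Without the second listed emetine library the change was -0.0975, and without the length correction -0.0724, both under the size of a call. The 134-nt form of the same exon, with the same skipping reads and more inclusion reads, went from 0.999 and 0.998 to 0.948 and 0.933. Reads across the junction that both forms share can come from either form. In neither line are the levels and changes those of the 65-nt form alone. Skipping reads of this TPM3 exon went from 4 and 6 to 119 and 156 in HMLE TWIST, and in MCF10A they went from 20 and 8 to 69 and 100. In TPM1 a 79-nt exon (63356263 to 63356341) went from 0.660 and 0.706 to 0.532 and 0.567 (change -0.133, adjusted p = 0.0397, quasi-binomial; 0.217 with limma). That call is lost without any 1 of the 4 libraries, with adjusted p-values from 0.105 to 0.255 (quasi-binomial).

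In ACTN1 the 66-nt exon, set against skipping of both exons of its pair, went from 0.469 and 0.354 to 0.769 and 0.718 (change 0.332, adjusted p = 0.00642, quasi-binomial; 0.0416 with limma). Its inclusion reads were 107 and 77 in DMSO and 77 and 59 under emetine. The reads that skip both exons went from 73 and 85 to 14 and 14, and the share of the 81-nt exon in the pair was 98.5% and 98.9% under emetine. In ACTN4 the pair of 81 and 66 nt, listed in HMLE TWIST only, gave the 81-nt exon (39218586 to 39218666) 98.5% and 99.1% of the reads in DMSO and 99.3% and 99.4% under emetine. The ACTN4 66-nt exon (39218956 to 39219021), against skipping of both, lay at 0.952 and 0.95 in DMSO and at 1 and 0.805 under emetine and was not called. The CALD1 78-nt exon was at 0.101 and 0.0829 under emetine, and the MYL6 45-nt exon at 0.538 and 0.504. A 115-nt exon of CALD1 (from 134647571) changed by 0.0126 (adjusted p = 0.000703, quasi-binomial; 0.0115 with limma), below the size of a call. The 4 tested TPM2 events changed by between -0.00812 and -0.000317 and the 5 tested TPM4 events by between -0.00174 and 0.00352.

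With both lines under emetine, 6 of 42 tested events were called, 1 higher and 5 lower in HMLE TWIST, against 9.69% of 28434 events in all genes (1.95% higher and 7.74% lower). limma called 0 in any gene at an adjusted p under 0.05, with 7901 events at an unadjusted p under 0.05. The TPM1 first exon differed in HMLE TWIST by -0.238 (adjusted p = 3.07e-11, quasi-binomial; 0.0642 with limma) and the second by 0.169 (adjusted p = 4.33e-15; 0.0872 with limma). For the microexons the difference was -0.133 in MACF1 (adjusted p = 3.59e-06, quasi-binomial; 0.0809 with limma) and -0.494 in DST (adjusted p = 5.56e-09; 0.0697 with limma). For the MYL6 36-nt exon it was -0.166 (adjusted p = 6.07e-11, quasi-binomial; 0.128 with limma). A 127-nt form of the TPM1 exon starting at 63356263 differed by -0.278 (adjusted p = 0.00842, quasi-binomial; 0.0976 with limma), and this call is lost without any 1 of the 4 libraries (adjusted p from 0.0536 to 0.224, quasi-binomial). Without the first listed HMLE TWIST emetine library that of the MACF1 18-nt exon is lost too (adjusted p = 0.0558, quasi-binomial). None of the 5 tested pairs was called (0, against 6.96% of 5917 pairs). This comparison shares its libraries with those of emetine within each line.

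The term for line by emetine, which tests whether the responses differ on the log odds scale, called 1 of 53 tested events, a lower one, against 1.6% of 31825 in all genes (0.518% higher and 1.08% lower). It was the TPM1 second exon, which in MCF10A went from 0.0519 and 0.0471 to 0.0985 and 0.0792. In HMLE TWIST it moved the other way, from 0.317 and 0.390 to 0.261 and 0.254. The difference of the changes was -0.135 (adjusted p = 0.000215, quasi-binomial; 0.384 with limma). The first exon of this pair rose in both lines, and its changes differed by 0.317, which was not called (adjusted p = 0.787, quasi-binomial). limma called 0 in any gene, with 4058 events at an unadjusted p under 0.05. For the DST 18-nt exon the changes differed by -0.418 (adjusted p = 0.496, quasi-binomial), and for the MACF1 18-nt exon by 0.282 (adjusted p = 1, quasi-binomial). The responses of these microexons were therefore not shown to differ between the lines. For the TPM2 pair the difference was 8.72 points (adjusted p = 3.86e-05, quasi-binomial; 0.354 with limma), below the size needed for a call, and 0 of 5 pairs were called (1.38% of 5591 pairs in all genes).

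In the authors' deposited table, 5 of the 98 MCF10A events and 10 of the 133 HMLE TWIST events had a false discovery rate under 0.05 and a difference of at least 0.1, against 6.93% and 7.59% of all listed events. In the authors' deposited table both microexons and the first TPM1 exon had a false discovery rate under 0.05 in each line. Some events of this table had too few reads for the tests used here. In TPM1, a 363-nt exon (63335668 to 63336030) had 3 and 5 inclusion against 5 and 5 skipping reads in HMLE TWIST with DMSO, and 42 and 38 against 7 and 10 under emetine. The authors' deposited table gives it a false discovery rate of 0.00785, and one of 0.0253 to the 126-nt form of the same exon (63335905 to 63336030), which had 9 and 5 inclusion reads in DMSO and 61 and 51 under emetine beside the same skipping reads. For a 161-nt exon of TPM4 (16191725 to 16191885) the authors' deposited table gives 0.00729, on 9 and 3 inclusion and 0 and 0 skipping reads in DMSO and 33 and 33 against 3 and 4 under emetine.

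Among 81 other genes of the actin cytoskeleton, 77 had a listed event. Of those tested, 14 of 61 genes had a called event between the untreated lines, 22 of 61 under emetine in MCF10A and 22 of 64 under emetine in HMLE TWIST, against 13.5%, 28.3% and 32.8% of all tested genes. Between the lines under emetine 19 of 61 had one and for line by emetine 7 of 64, against 23.3% and 5.08%. The largest differences between the untreated lines were a 60-nt exon of SPTAN1, the alpha subunit of spectrin (0.894 in MCF10A, 0.223 in HMLE TWIST), and a 12-nt exon of MYO18A, an unconventional myosin (0.679 and 0.142). The largest called changes under emetine went in both directions. In MCF10A a 240-nt exon of PHACTR2, an actin-binding phosphatase regulator, went from 0.0302 to 0.771, a 21-nt exon of MLLT4, the junction protein afadin, from 0.606 to 0.177, and a 99-nt exon of ABLIM3, an actin-binding LIM protein, from 0.0557 to 0.468. In HMLE TWIST a 189-nt exon of PDLIM7, a PDZ and LIM protein, went from 0.221 to 0.692 on as few as 23 reads in a library, a 57-nt exon of LMO7 from 0.586 to 0.979 and the MLLT4 exon from 0.657 to 0.269. All of these are means of 2 libraries, and the SDs ran from 0.00349 to 0.166.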

How the data were processed

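Polyadenylated RNA of 8 libraries was sequenced as stranded pairs, per the labels' protocols. Per the file headers, the deposited tables hold rMATS skipped-exon events with inclusion and skipping junction counts, and the authors' p-value, false discovery rate and difference score per event. The 4 deposited columns of inclusion levels were not used, and levels were computed from the counts and effective lengths. STAR 2.5.3a and GRCh37 are named in the submitters' processing notes without their role. The rMATS version and the annotation are not given in the sources used here. Groups are named in the header only as sample 1 and sample 2, taken as DMSO and emetine from the order in each table's name. The quasi-binomial logistic model of the deposited counts was fitted in Python 3.11.15, and its dispersions were moderated over all tested events with limma 3.58.1 (squeezeVar, R 4.3.3), floored at 1. Tested events had 20 reads or more in every library of the fit and 10 or more of the rarer form. All tests are two-sided, with Benjamini-Hochberg adjustment over all events of a fit, including each adjusted p from the quasi-binomial model and from limma on log2 odds (0.5 added). SDs are over 2 libraries. Of the 152 events, 127 matched a GENCODE 29 transcript. Named exons are those called, those with the largest change of an uncalled gene (not given for every comparison), and the tested intermediate exons (a group mean from 0.05 to 0.95) of tropomyosins, alpha-actinins, MYL6 and CALD1, each read in its deepest event unless another flank is given. The MACF1 111-nt, DST 327-nt and MYL6 144-nt exons and the 3 untested exons of TPM1 and TPM4 lie outside this rule and were chosen after their values were seen. Genes, lists and tests were chosen with earlier results of these data known. Events of a gene share reads and are not independent. The libraries are called biological replicates, and whether they are separate cultures is not stated, so p-values refer to the spread between these libraries only. The quasi-binomial p-values take most of that spread from all tested events together (6.24 to 102.7 prior degrees of freedom). The event's own libraries weigh less in them.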

Additional observations from a re-analysis of the deposited data

Results flagged for a closer look

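The TPM1 second 76-nt exon (63353912 to 63353987) was singled out because the effect of emetine differed between the lines by the test of line by emetine itself. In MCF10A its mean level was 0.0495 in DMSO and 0.0889 under emetine, while HMLE TWIST had 0.353 and 0.258. The difference of the changes was -0.1352 (adjusted p = 0.000215, quasi-binomial), and both HMLE TWIST emetine libraries lay below their DMSO libraries while both MCF10A emetine libraries lay above theirs. limma gave an adjusted p of 0.384, and the larger of the moderated and the event's own dispersion gave 0.0528. The call is lost without either MCF10A emetine library (adjusted p = 0.151 and 0.0613, quasi-binomial), and without the second listed HMLE TWIST DMSO library, where the difference was -0.099. With dispersions moderated towards well-counted events alone it is also lost without the second listed MCF10A DMSO library (adjusted p = 0.0517, quasi-binomial). Reads that join both TPM1 exons count as inclusion of this exon, and in HMLE TWIST they were 26 and 19 in DMSO and 503 and 298 under emetine. Their part in the difference was not tested. The event of the first 76-nt exon, which describes the same choice, did not show such a difference. That exon rose in both lines, and its changes differed by 0.317 (adjusted p = 0.787, quasi-binomial, and 0.811 with limma).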

How the results depend on the processing

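No result reversed its direction under any alternative run. Called member events numbered 4, 5, 6, 6 and 1 (untreated lines, emetine in MCF10A, emetine in HMLE TWIST, lines under emetine, line by emetine). They numbered 0, 3, 5, 0 and 0 with limma, 5, 3, 6, 6 and 1 without the length correction, and 7, 9, 9, 7 and 2 at a change of at least 0.05. In all genes limma called 36, 2012, 3012, 0 and 0 of the tested events. Calls in all genes were 1166, 3148, 3591, 2424 and 511 without the length correction, and 1910, 5088, 6501, 4317 and 695 at 0.05. Without the filter on the rarer form the member calls were 0, 4, 5, 0 and 1, against 0, 2391, 3659, 0 and 613 in all genes. With the larger of the moderated and the event's own dispersion they were 4, 5, 6, 6 and 0, against 1054, 3018, 3827, 2410 and 297. With a replicate block, for which the place in the cell was taken as the number, none was called in the 5 comparisons (0 each). Over all events the deviations of same-numbered libraries were hardly correlated (from -0.00892 to 0.0194). Since the place in the cell carries no replicate number, this cannot show whether libraries were paired. Leaving out each library gave 3 to 4, 0 to 6, 0 to 6, 4 to 5 and 0 to 2 calls. The moderation gave 0.721 to 4.71 prior degrees of freedom with the block. Without an emetine library it gave 1.06 to 1.35 within a line, where calls were lost over all genes. An alternative chosen after seeing the data took the prior from events with at least 5 expected reads of each form in every library. It gave 4, 5, 6, 6 and 1 calls, with the replicate block 4, 5, 7, 6 and 1, without the filter 4, 4, 5, 6 and 1, and leaving out each library 3 to 4, 4 to 6, 5 to 6, 5 to 6 and 0 to 2. The microexon and TPM1 first-exon calls within each line passed in each of these added fits. With 2 libraries per group, limma's smallest adjusted p over all events was 0.0609 for the lines under emetine and 0.197 for line by emetine. Depth limits what could be tested, since 90 of the 152 events met the read minimums in no comparison.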
